A study of Strongylocentrotus purpuratus with 2 samples.

Results

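Forkhead transcription factors are described here in whole purple sea urchin embryos (Strongylocentrotus purpuratus), with FoxD set beside the forkhead genes of endoderm, mesoderm, apical ectoderm and cilia. The members are the transcript models whose gene name begins with Sp-Fox and a further letter, taken once per model. This pattern found 25 models, of which 23 had a value, among 12943 models with a value in all. Of the 23, Sp-Foxred1 and Sp-Foxred2 are named for FAD-dependent oxidoreductases and not for forkhead proteins, so 21 forkhead models under 19 gene names remain. FoxL2 and FoxN2/3 were blank in both libraries and have no value. FoxD was chosen by its measured ratio between the libraries, so that ratio is given as a description and supports nothing.

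Embryos had been injected as fertilized eggs with either glycerol, as the control, or a morpholino, an antisense oligonucleotide, against soxC, the gene of a SoxC family transcription factor. About 1000 embryos per sample were raised in artificial sea water at 15 °C and taken 30 hours after fertilization, and total RNA was sequenced as 1 library per group. No strain or genotype is given for either group, and no library from embryos with a control morpholino was analysed here. With 1 library per group there is no spread between samples and no test between the conditions. Effects of targeting soxC, of a morpholino as such and of any difference between the cultures cannot be told apart.

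The deposited values are a normalized signal that could be divided back into whole reads, 4414503 for the control and 4763995 for the library with the SoxC morpholino label, called the morpholino library from here on. Ranges in parentheses are exact 95% intervals of a ratio, for counting error alone. The size rule asked for a mean level of 1 CPM or more (reads per 1000000 recovered reads), a difference of 2-fold or more and an interval without a ratio of 1 in it. By this rule 412 of 8819 models above the level floor were lower in the morpholino library and 58 were higher. With the median of ratios as the scaling, the split was 216 lower and 127 higher. The median log2 ratio of all models was -0.21, so a model at 1.15-fold lower lay at the middle of all models. The soxC transcript was 3.58-fold higher (3.46 to 3.71) in the morpholino library. A morpholino acts on translation or splicing, so the transcript level does not check the label. The headers of the value columns name the glycerol and morpholino samples apart but give an identical barcode and lane, so every direction here rests on the labels. The most abundant model, which has no gene name, held 6.75% of the control reads and 19.6% of the others.

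Forkhead proteins bind DNA through a winged-helix domain and act as regulators of cell fate in all animals, with lettered subfamilies shared between sea urchins and vertebrates. In sea urchin embryos several of them mark single territories: FoxA belongs to the endoderm network, FoxQ2 to the apical plate, FoxG to the ciliary band and oral ectoderm, FoxY to the small micromere descendants of the coelomic pouches, and FoxJ1 to cells that build motile cilia. FoxD genes are best known from vertebrates, where FoxD3 acts in the neural crest. RNA from whole embryos does not show which cells a transcript came from, and fewer cells of a type cannot be told apart from less RNA per cell.

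FoxD (Sp-FoxD, WHL22.41742.0) was the forkhead model with the largest difference among the 18 above the level floor. Its signal was 378.6 in the control and 124.6 in the morpholino library, from 143 and 49 reads. It was therefore 3.04-fold lower (2.18 to 4.29), or 2.63-fold lower relative to the median of all models. FoxD was the 1 forkhead model of 18 that met the size rule as lower, where 4.67% of all models did, and no forkhead model met it as higher, where 0.658% did. The models nearest to the 2-fold limit on the other side were FoxL1 at 1.65-fold, FoxI at 1.59-fold and FoxAB-Like at 1.55-fold lower. No forkhead value lay between these and FoxD.

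**Figure D1:**
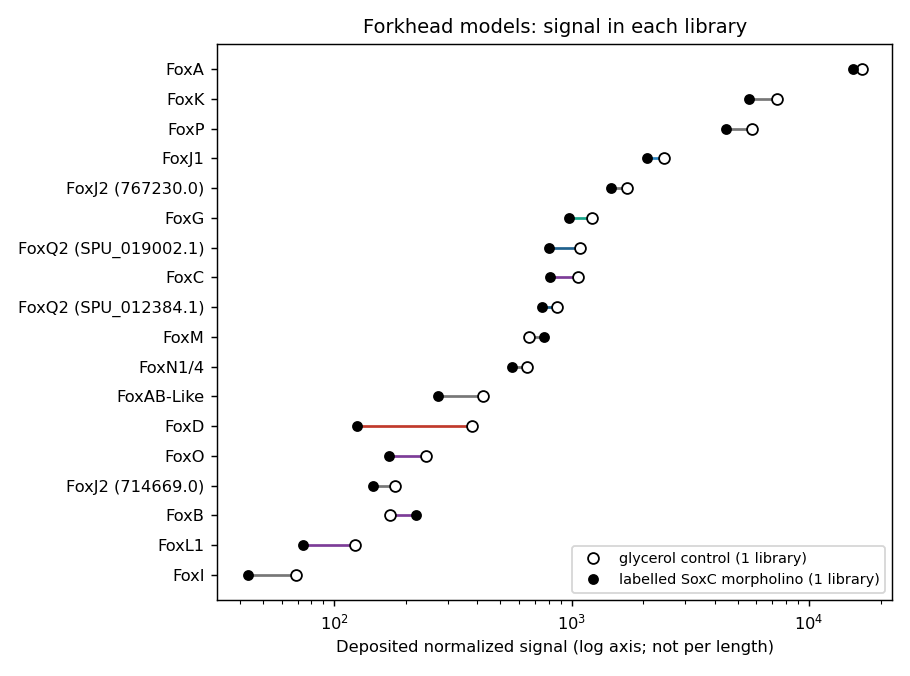
Deposited normalized signal (log axis, not corrected for transcript length) of the 18 forkhead models above the level floor, with the glycerol control as open circles and the morpholino library as filled circles, 1 library each. FoxD shows the widest gap, from 378.6 to 124.6, while FoxB and FoxM are the models whose filled circle lies to the right.

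Ranked by the interval bound nearest to 1, FoxD stood at place 29 of the 412 lower models. A ratio as low as that of FoxD or lower was found for 213 of 8819 models (2.42%). Many of those models had few reads. Among the 2184 models whose total reads lay within 2-fold of the 192 of FoxD, only 6 were as low (0.275%), FoxD included. These shares describe where FoxD lies and are no test, since it was chosen for its value.

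**Figure D2:**
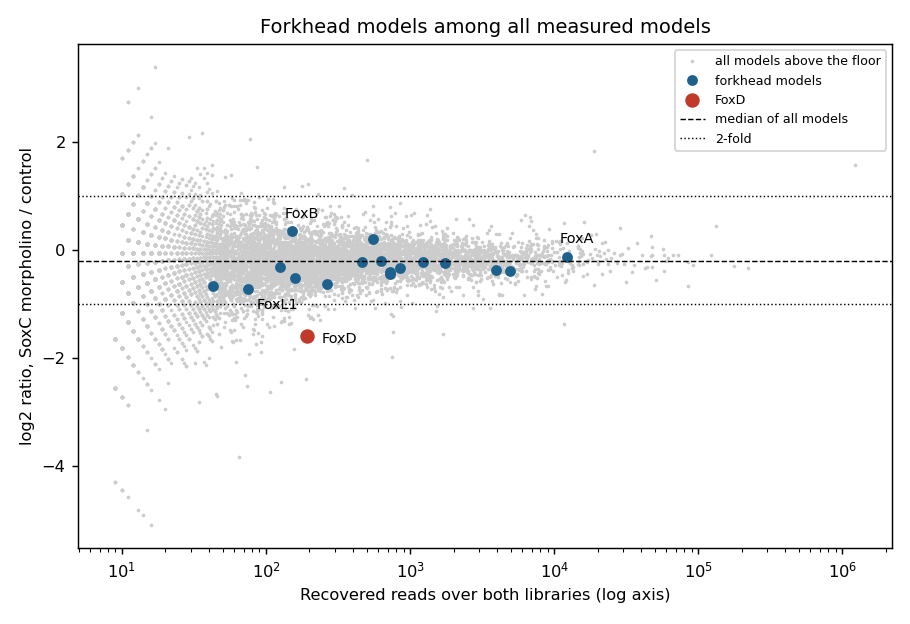
Log2 ratio, morpholino library over control, against the recovered reads over both libraries (log axis) for the 8819 models above the floor in grey, forkhead models in blue and FoxD in red. The spread narrows as reads increase, and FoxD at -1.59 lies below the 2-fold line while the other 17 forkhead models lie between the 2-fold lines.

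The endoderm gene FoxA (Sp-FoxA, WHL22.439762.0), which in sea urchins helps to specify gut and to exclude mesodermal fate, had the most reads of the family, with 6291 and 5988. Its signal was 16655.1 in the control and 15232.1 in the morpholino library, 1.09-fold lower (1.06 to 1.13). FoxA thus differed by less than the median model did, and its interval lay above that median.

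Among the mesodermal forkhead genes, FoxC (WHL22.639627.0), a gene of coelomic mesoderm, had a signal of 1066.9 in the control and 808.9 in the morpholino library, 1.32-fold lower (1.14 to 1.53) from 403 and 318 reads. FoxO (WHL22.241099.0), an effector of insulin signalling in many animals, had 243.6 and 170.4, 1.43-fold lower (1.03 to 1.99) from 92 and 67 reads. FoxL1 (WHL22.639477.0), known from the mesenchyme of the vertebrate gut, had 121.8 and 73.8, 1.65-fold lower (1.02 to 2.73) from 46 and 29 reads. The intervals of these 3 genes excluded a ratio of 1 but reached or passed the median of all models, and that of FoxL1 also took in a 2-fold difference.

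FoxB (WHL22.743430.0), listed with the mesoderm because it belongs to the skeletogenic network, lay the other way. Its signal was 172.1 in the control and 221.3 in the morpholino library, a ratio of 1.29 (0.922 to 1.8) from 65 and 87 reads. The interval took in a ratio of 1 and lay above the median of all models. FoxF (WHL22.639684.0), a gene of muscle-forming mesoderm, had 6 reads in the control and 1 in the morpholino library, and FoxY (WHL22.399521.2) had 1 and 0. Both were under the level floor. The ratio of FoxF ran from 0.00348 to 1.32, so no difference was detectable at this depth, and no fold is given for FoxY.

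FoxQ2, a regulator of the apical plate from which the larval apical organ forms, was represented by 2 models with identifiers of another style. In SPU_012384.1 the signal was 865.7 in the control and 753 in the morpholino library, 1.15-fold lower (0.979 to 1.35). In SPU_019002.1 it was 1085.5 and 801.3, 1.35-fold lower (1.17 to 1.57). The first lay at the median of all models and the interval of the second lay below it, but the models carry the same gene name and could share reads. FoxG (WHL22.389872.0) had 1223.1 and 976.8, 1.25-fold lower (1.09 to 1.44).

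FoxJ1 (WHL22.468365.0), the regulator that switches on genes of motile cilia in many animals, had a signal of 2438.3 in the control and 2075.7 in the morpholino library. It was 1.17-fold lower (1.07 to 1.29) from 921 and 816 reads, which is -0.02 on the log2 scale relative to the median of all models. The interval of FoxJ1 took in that median and excluded a 2-fold difference.

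The remaining forkhead genes have no territory assigned here. FoxK (WHL22.490768.0) had 7309.6 in the control and 5596.3 in the morpholino library, 1.31-fold lower (1.23 to 1.38). FoxP (WHL22.624355.0), whose vertebrate relatives act in lung, brain and lymphocytes, had 5763.5 and 4477, 1.29-fold lower (1.21 to 1.37). These were the most deeply covered members after FoxA, and both intervals lay below the median of all models. FoxAB-Like (WHL22.615153.0) had 420.9 and 272.2, 1.55-fold lower (1.2 to 2), from 159 and 107 reads, and its interval also lay below that median. FoxI (WHL22.535569.0), whose vertebrate relatives act in the ear placode and in ionocytes, had 68.8 and 43.2, 1.59-fold lower (0.831 to 3.13), from 26 and 17 reads, so a 2-fold difference in that direction was neither shown nor excluded.

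FoxM (WHL22.548104.0), whose human relative drives genes of cell division, was the second model that lay higher. It had 661.9 in the control and 763.1 in the morpholino library, a ratio of 1.15 (0.972 to 1.37), and its interval lay above the median of all models. FoxN1/4 (WHL22.604594.1) had 648.6 and 559.6, 1.16-fold lower (0.962 to 1.4). Of the 2 FoxJ2 models, WHL22.767230.0 had 1702.3 and 1465.2, 1.16-fold lower (1.04 to 1.3), and WHL22.714669.0 had 180 and 145, 1.24-fold lower (0.86 to 1.8). The intervals of FoxN1/4 and of both FoxJ2 models took in the median of all models. FoxQ1 (WHL22.145751.0) had 1 read in each library and was under the level floor.

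Across the family, 16 of the 18 models above the floor had a log2 ratio below 0 under the deposited scaling. Most of all models lay below 0 as well, with a 75th percentile of 0.05 on the log2 scale. Of the 18 forkhead models, 14 (77.8%) lay below the median of all models. The family median was -0.34 on the log2 scale, beside -0.21 for all models, and it was -0.32 without FoxD. For 12 of the 18 the interval lay below a ratio of 1, as it did for 25.6% of all models, and for none did it lie above, where 3.99% of all models did. Set against the median of all models instead, 5 intervals lay below it (10.2% of all models) and 3 above it (12.4%). The 5 belonged to FoxD, FoxK, FoxP, FoxAB-Like and the second FoxQ2 model, and the 3 to FoxA, FoxB and FoxM. Under the deposited scaling, the FoxD interval was the only one of the 18 that lay wholly beyond 2-fold. It took in 2-fold with the median of ratios (lower bound 1.91-fold) and with totals without the most abundant model (1.95-fold). Of the 18 intervals, 15 lay wholly within 2-fold in either direction, as did 4641 of all 8819 models. Among the 2184 models with reads within 2-fold of those of FoxD, 1775 did. The other 2 forkhead intervals, of FoxL1 and FoxI, reached past 2-fold lower. An interval narrows with reads, so deeply covered genes pass such limits at smaller differences.

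**Figure D3:**
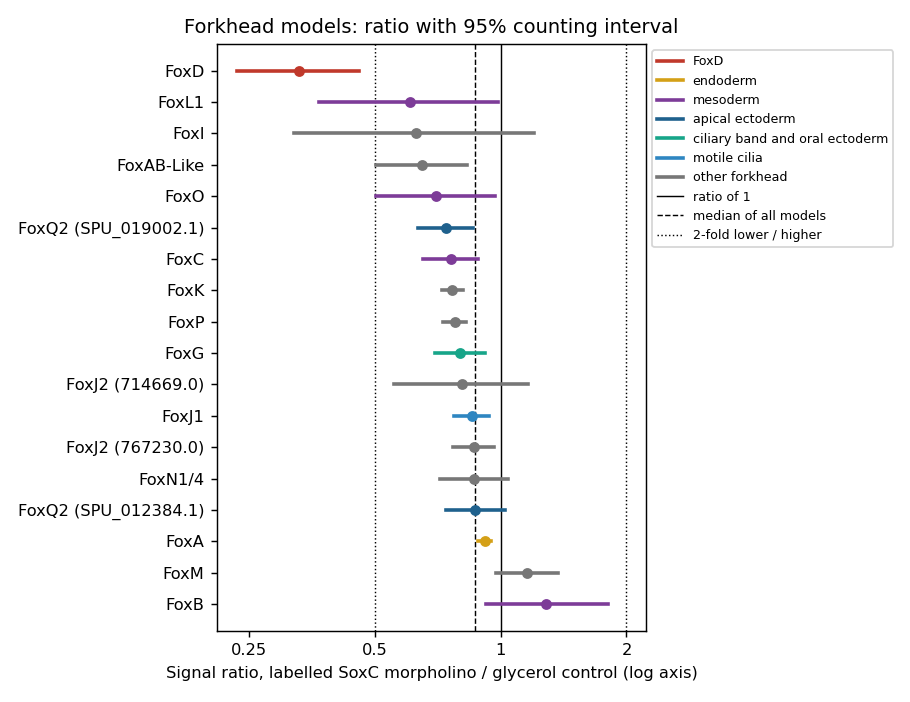
Ratio of signal, morpholino library over control, (log axis) for the 18 forkhead models above the floor, as points with exact 95% counting intervals, coloured by the territory group. Under the deposited scaling drawn here, FoxD at 3.04-fold lower is the only interval wholly to the left of the dotted 2-fold line. Most other points gather around the dashed median of all models.

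Ratios between forkhead genes within a library do not depend on how the libraries were scaled. FoxD held 0.923% of the forkhead reads in the control (143 of 15497, exact binomial 0.778% to 1.09%) and 0.361% in the morpholino library (49 of 13588, 0.267% to 0.476%). FoxA held 40.6% and 44.1% of the same reads. These are shares of reads and not of transcripts, because transcript lengths were not used here. The FoxD shares rest on the same reads as the ratio by which it was chosen, so they are a description and no test.

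With another forkhead model as the reference, FoxD was lower by 1.84-fold to 3.91-fold over the 17 possible references, and 15 of the 17 intervals lay above 1. Since FoxD was chosen by its own ratio, these values describe the distance to each gene and are no test of it. Against the endoderm gene FoxA it was 2.78-fold lower (1.99 to 3.93). Against the mesodermal FoxC it was 2.3-fold lower (1.6 to 3.36) and against FoxB 3.91-fold (2.41 to 6.33). Against the apical FoxQ2 models it was 2.64-fold (1.82 to 3.87) and 2.24-fold lower (1.55 to 3.27), and against the ciliary gene FoxJ1 2.59-fold (1.83 to 3.7). Against FoxL1 the value was 1.84-fold (0.998 to 3.36) and against FoxI 1.91-fold (0.889 to 4), with intervals that take in 1 and are widened by the few reads of these genes. All 17 comparisons share the FoxD reads.

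**Figure D4:**
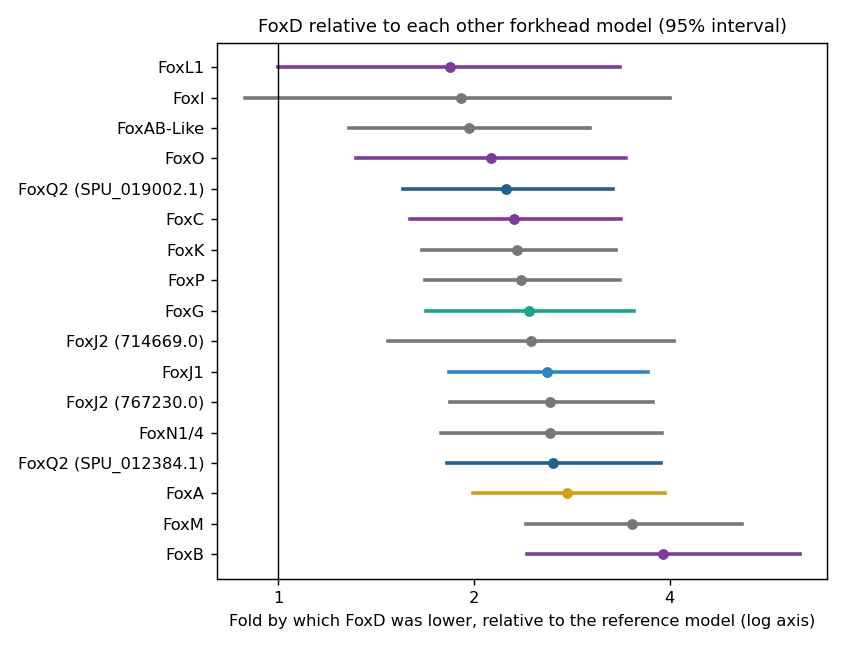
Fold by which FoxD was lower in the morpholino library with each other forkhead model as the reference (log axis), as points with exact 95% intervals, coloured by territory group as in the plot of ratios. Values run from 1.84 for FoxL1 to 3.91 for FoxB, and the intervals for FoxL1 and FoxI take in 1.

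The forkhead genes were set beside lists of other genes of the same territories. Of 10 measured genes of the endoderm network, 2 were lower by the size rule, none was higher and the median was -0.20 relative to all models, while FoxA lay at 0.08. The 2 lower genes were the POU domain gene Sp-Brn1-2-4, which also acts in neural cells, at 3.97-fold (3.32 to 4.77), and the ParaHox gene Sp-Xlox of the gut at 2.02-fold (1.3 to 3.19). Relative to the median of all models Sp-Xlox lay at -0.79 on the log2 scale, short of 2-fold. The highest member was the T-box gene Sp-Bra at 1.03-fold lower (0.869 to 1.22). Of the 10 intervals in the list, 4 lay below the median of all models and none above it, beside 10.2% and 12.4% of all models.

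None of the 13 measured genes of the mesoderm network met the rule in either direction, and 9 lay above the median of all models, with a list median of 0.31 relative to it. Of the 13 intervals, 3 lay below that median and 6 above it, beside 10.2% and 12.4% of all models. The highest gene was Sp-Scl, named for a blood cell regulator of vertebrates. Its signal was 553.3 in the control and 870 in the morpholino library, a ratio of 1.57 (1.32 to 1.88). The lowest was Sp-Sna, named for the snail type of zinc finger repressor, with 11 and 4 reads, 2.86-fold lower with an interval that took in a ratio of 1 (0.848 to 12.3). The lowest deeply covered member, named after its value was seen, was the T-box gene Sp-Tbr of the skeletogenic network, 1.78-fold lower (1.44 to 2.2). The 4 measured mesodermal forkhead models had a median of -0.25 relative to all models, with FoxC, FoxO and FoxL1 below and FoxB at 0.57. Whether the forkhead genes and the list differ was not tested.

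Of 12 measured genes of the apical ectoderm network, 2 were lower, none was higher and the median was 0.06 relative to all models, beside 0.01 and -0.23 for the FoxQ2 models. The 2 were the neuronal homeobox gene Sp-Otp at 5.96-fold (3.12 to 12.5) and the LIM homeobox model Sp-lhx2 at 2.42-fold (1.8 to 3.3). The highest was the proneural gene Sp-Ac-sc, with a signal of 781 in the control and 910.7 in the morpholino library. Of the other members, the apical regulator Sp-Six3 was 1.09-fold lower (1.01 to 1.17) and Sp-Hbn 1.06-fold (0.971 to 1.15), and these values and that of Sp-Ac-sc lay above the median of all models. Sp-Nkx2-1, a homeobox gene of the apical plate, lay below it, with 2975.7 and 2182.6, 1.36-fold lower (1.25 to 1.49). Of the 12 intervals in the list, 5 lay below the median of all models and 2 above it, beside 10.2% and 12.4% of all models.

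Of 27 measured models of motile cilia genes, 1 was lower, none was higher and the median was 0.15 relative to all models, with FoxJ1 at -0.02. The lower model carries the names Sp-Rfx2 and Sp-Rfx3, of the RFX family that acts with FoxJ1 on cilia genes in vertebrates. It was 2.08-fold lower (1.38 to 3.18), and at -0.84 on the log2 scale relative to the median of all models, short of 2-fold. The lowest and highest models were dynein heavy chains with few reads, Sp-Dnahc8L_1 with 8 and 3 and Sp-DNAH8-1 with 13 and 22. Of the 27 intervals in the list, 3 lay below the median of all models and 5 above it, beside 10.2% and 12.4% of all models. The percentages of all models that met the rule, 4.67% lower and 0.658% higher, apply to these lists as well.

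**Figure D5:**
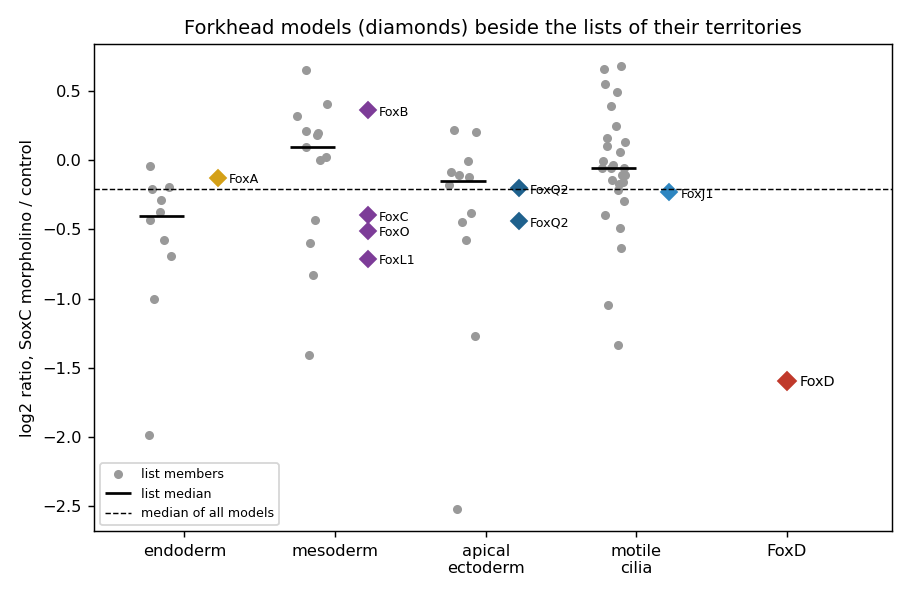
Log2 ratio, morpholino library over control, for the members of 4 territory lists (grey points, black bar at the list median) and for the forkhead models of those territories (diamonds), with FoxD at the right. Models under the level floor, among them FoxF and FoxY, are not drawn. FoxD at -1.59 lies lower than every diamond drawn, and of the list members drawn only Sp-Brn1-2-4 and Sp-Otp lie lower than FoxD.

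The 5 named models most like FoxD over the 2 libraries were taken as those with the nearest log2 ratio among 1471 named models whose reads lay within 2-fold of its own. The nearest was Sp-IA-1, a name used for the insm1 type of zinc finger gene of neuroendocrine cells, with 635.4 in the control and 190.8 in the morpholino library, 3.33-fold lower (2.56 to 4.38). Sp-SSU72, named for a phosphatase of RNA polymerase II, had 201.2 and 73.8, 2.73-fold lower (1.76 to 4.34). The next were Sp-ser Asp rich protein at 2.67-fold (1.75 to 4.15), the model named both Sp-Ltb4dh and Sp-Ptgr1_1 at 2.61-fold (1.8 to 3.85) and Sp-Amt1 at 2.62-fold (1.68 to 4.18). All 5 intervals overlap that of FoxD, which follows from the choice of models with a ratio near its own. A likeness over 2 libraries rests on a single ratio, here the ratio by which FoxD was chosen.

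The names that the pattern also caught, Sp-Foxred1 and Sp-Foxred2, had 7 and 11 reads and 1 and 2 reads. Neither interval excluded a ratio of 1.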

How the data were processed

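RNA from 1 library per group was compared, grouped by sample title. What the authors deposited is a normalized signal per transcript model. Per the submitters' processing notes, the tools included CASAVA 1.8 and Bowtie. No source used here gives the Bowtie version, counter, normalization, strand use or genome build. Within each library the deposited signal was a multiple of 1 step, 2.65 for the control and 2.54 for the morpholino library, and division gave whole reads within 0.1 for 99.977% and 99.992% of models. Each table has 24565 rows for 17269 models. The 4326 models without a value were left out and never set to 0. Repeated rows of a model were counted once, and 3006 models stand on several rows. Near-identical genes may share reads.

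Log2 ratios used a pseudocount of 0.5 reads, which understates changes of low genes, and folds used none. The size rule applied 2-fold to the ratio with the pseudocount. Intervals are exact Clopper-Pearson for 1 model and exact conditional odds ratios between models (scipy 1.17.1, Python 3.11.15). All calls were made over all 8819 models above 1 CPM. Named genes were every forkhead model, list members that met the rule, the highest and lowest of each list, and the 5 models most like FoxD; Sp-Six3, Sp-Hbn, Sp-Nkx2-1 and Sp-Tbr were named after their values were seen. List entries were matched by spelling, Sp-Sna and Sp-Nkx2-1 after their values were seen, and 7 entries had no name matched or no value. Members and lists were chosen with earlier results of these data known. No table identifier matched the RefSeq gene table, so positions and sequences are not used here.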

Additional observations from a re-analysis of the deposited data

How the results depend on the processing

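With each setting changed alone, FoxD met the size rule under every scaling, floor, fold and test tried. Its fold ran from 2.66-fold (1.91 to 3.76) with the median of ratios to 3.15-fold lower (2.26 to 4.45) with total reads. The 3-fold limit was tried under the deposited scaling only, where FoxD was 3.04-fold lower. The 2.66-fold with the median of ratios was short of that limit. The log2 ratio of FoxD ran from -1.40 to -1.65. No forkhead model was higher under any setting, and FoxD was the only lower one except at 1.5-fold. There FoxL1 and FoxAB-Like made 3 of 18, where 9.87% of all models were lower. The forkhead median moved from -0.34 to -0.155 with the median of ratios and to -0.18 with totals without the most abundant model, which shift every model alike. Under both, 3 of 18 forkhead models lay above 0. Totals without the most abundant model, the exact binomial test, the oxidoreductase names and WHL22 identifiers only were chosen after the data were seen.

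For all models, the 412 lower and 58 higher became 216 and 127 under the median of ratios, 239 and 115 under totals that leave out the most abundant model, 152 and 14 under a floor of 5 CPM, 870 and 142 at 1.5-fold, 157 and 25 at 3-fold, and 706 and 173 by fold with no interval. When the interval was replaced by an exact binomial test of the recovered reads with Benjamini-Hochberg adjustment, 247 and 28 were called; such a test is about 2 libraries and not about conditions. Total reads, the upper quartile and no floor kept both counts within 1.5 times. No paired analysis was possible because there was 1 library a group. Depth limits FoxF, FoxY and FoxQ1, which had at most 7 reads in all.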
